A study of Mus musculus with 17 samples.

Results

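The C/EBP family genes Cebpa, Cebpb, Cebpd, Cebpe and Cebpg were followed through 16 lists of ChIP-seq peaks from mouse macrophages. The 5 members were taken by name from 21887 protein-coding genes, and a peak was assigned to a member when its summit lay within 20 kb or within 100 kb of the gene's span. Of 144384 peaks in the 16 lists, 65 met the first condition and 211 the second, each peak counted once. The cells were wild-type C57BL/6 macrophages, differentiated for 7 days from marrow cells in L929-conditioned medium, a source of macrophage growth factor. They were untreated, or treated with interleukin 4 (IL4, 10 ng/ml), interferon gamma (IFNg, 100 ng/ml) or both. STAT6 was mapped after 2 h of IL4 and of IFNg+IL4. IRF1, JUNB and CEBPB each had an untreated library, one with IFNg for 4 h and one with IFNg+IL4 for 4 h. MYC had an untreated library and 4 others, with IL4 or IFNg+IL4 for 2 h or 4 h. Each group was 1 library, so there are no replicates, no p-values were computed, and every comparison describes these libraries only. The labels do not say how many animals gave the cells, and the lists hold no RNA values against which the labelled cell type could be checked.

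C/EBP proteins are basic leucine zipper factors that bind DNA as dimers with one another or with related zipper proteins. Cebpa encodes C/EBPα, which is needed to make granulocyte and monocyte progenitors. Cebpb encodes C/EBPβ, the member mapped here as CEBPB, which takes part in macrophage activation and emergency granulocyte production. Cebpd encodes C/EBPδ, an inducible factor of acute-phase and inflammatory responses, and Cebpe encodes C/EBPε, a factor of late granulocyte maturation. Cebpg encodes C/EBPγ, which lacks a transactivation domain and acts mainly as a dimer partner. Several C/EBP genes are known to be controlled by C/EBP proteins, so binding of CEBPB at its own gene and at its relatives is of interest. STAT6 is the factor activated through the IL4 receptor, IRF1 is induced by interferons, JUNB is a subunit of AP-1 and MYC drives growth.

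The genes lie at 4 loci of GRCm38. Cebpb spans chr2:167688915-167690432, Cebpd spans chr16:15887286-15889545 and Cebpe spans chr14:54710363-54712174. Cebpg (chr7:35046422-35056566) and Cebpa (chr7:35119293-35121928) are neighbours with 62.7 kb between them. All peaks within 100 kb of Cebpg or of Cebpa lay within 100 kb of both, so these genes share their wide window. The span of Cebpd overlaps that of Spidr by 322 bp. The predicted gene Gm45095 overlaps the start of Cebpg.

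The RefSeq promoter table (GRCm38.p6) held 3 of the 5 members: Cebpa, Cebpb and Cebpg. The 250 bases before each start site are shown because their coverage differed between the members. Peaks of 8 lists covered bases of the Cebpa window and peaks of 4 lists covered bases of the Cebpg window. No list had a peak over the Cebpb window. How many promoters of all genes are covered by as many lists, or by none, was not computed. Capitals mark the stretch that the peaks of all 8 or all 4 lists covered, 104 bases for Cebpa and 100 bases for Cebpg. The windows are chr7:35119043-35119292 on the plus strand for Cebpa, chr7:35056567-35056816 on the minus strand for Cebpg and chr2:167688665-167688914 on the plus strand for Cebpb. Each is written 5′ to 3′ and ends at the base before the start site.
Cebpa: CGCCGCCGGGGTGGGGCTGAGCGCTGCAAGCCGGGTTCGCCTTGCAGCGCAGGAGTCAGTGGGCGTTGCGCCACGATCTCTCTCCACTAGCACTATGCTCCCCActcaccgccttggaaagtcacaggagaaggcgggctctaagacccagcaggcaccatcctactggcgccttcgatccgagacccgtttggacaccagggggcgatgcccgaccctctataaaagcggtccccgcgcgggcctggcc
Cebpg: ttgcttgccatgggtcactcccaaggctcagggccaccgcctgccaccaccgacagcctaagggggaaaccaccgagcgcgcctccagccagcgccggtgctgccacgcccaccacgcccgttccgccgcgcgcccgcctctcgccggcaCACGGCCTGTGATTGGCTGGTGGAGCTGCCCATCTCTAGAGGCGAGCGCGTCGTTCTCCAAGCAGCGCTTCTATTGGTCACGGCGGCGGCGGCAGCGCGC
Cebpb: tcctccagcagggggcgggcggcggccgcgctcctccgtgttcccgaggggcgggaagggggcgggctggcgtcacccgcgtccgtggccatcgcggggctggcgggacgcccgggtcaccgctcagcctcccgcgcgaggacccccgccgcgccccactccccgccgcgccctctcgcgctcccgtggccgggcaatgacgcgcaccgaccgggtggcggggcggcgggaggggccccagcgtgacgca

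Over 32851 promoter entries the median GC content was 52.4% and the 90th percentile 69.2%. The windows had 66.4% for Cebpa, 70.8% for Cebpg and 81.6% for Cebpb. They were searched on both strands for the C/EBP letters TTGCNNAA, the AP-1 letters TGANTCA, the IRF letters AANNGAAA, the E-box CACGTG known for MYC and the STAT6 letters TTCNNNNGAA. None of the 5 strings occurred in any of the 3 windows. Over all promoter entries the shares with a match were 9.56%, 6.75%, 21.3%, 6.02% and 5.85%, in the same order. A missing match says only that these letters are not in these windows.

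CEBPB was not listed within 20 kb of any of the 5 members in untreated cells, was listed at all 5 with IFNg, and at 2 of 5, Cebpa and Cebpg, with IFNg+IL4. Over all protein-coding genes the shares with a CEBPB peak within 20 kb were 20.7%, 48.2% and 22.4%. The order of the counts is thus that of the list lengths, which were 5540, 21499 and 6278 peaks. When each CEBPB list was limited to its 5540 strongest peaks by −log10 p, the number of members with a peak was 0 in untreated cells, 1 with IFNg and 1 with IFNg+IL4. Within 100 kb CEBPB was listed at 2, 5 and 4 members, beside 45.5%, 75.1% and 48.0% of genes.

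The other factors differed in which members they reached. STAT6 was listed within 20 kb of Cebpa, Cebpd and Cebpg with IL4, and of all 5 members with IFNg+IL4, beside 49.8% and 46.0% of genes. Within 100 kb it was listed at all 5 members in both lists, beside 73.1% and 71.0%. Its counts within 20 kb of Cebpa were 4 and 4, of Cebpg 5 and 3, and of Cebpd 3 and 3, while Cebpb and Cebpe each had 0 with IL4 and 1 with IFNg+IL4.

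IRF1 had no peak near a member in untreated cells at either distance, in a list of 244 peaks that reached 2.47% of genes within 20 kb and 6.36% within 100 kb. With IFNg it was listed within 20 kb of Cebpb and Cebpe (18.0% of genes), and with IFNg+IL4 of Cebpa, Cebpb, Cebpe and Cebpg (29.7%). Within 100 kb it reached 4 and 5 members, beside 41.7% and 58.3% of genes. Cebpd was the member without an IRF1 peak within 20 kb in any of the 3 lists.

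JUNB was listed within 20 kb of Cebpd and Cebpg in untreated cells, of Cebpd with IFNg and of Cebpa with IFNg+IL4, beside 25.2%, 20.7% and 16.8% of genes. Within 100 kb it was listed at 5, 3 and 4 members (53.0%, 46.1% and 40.0% of genes). The member with the most was Cebpb, which had 6, 5 and 4 JUNB peaks within 100 kb and none within 20 kb. Between 3.81% and 4.6% of genes had as many JUNB peaks as Cebpb in the same list, or more. Untreated JUNB peaks were selected on p, unlike the other lists, and those with a −log10 q from 5 upward reached 0 members within 20 kb.

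MYC was not listed within 20 kb of a member in untreated cells (4.72% of genes). With IL4 it was listed at Cebpa, Cebpb, Cebpd and Cebpg after 2 h (51.1% of genes) and at Cebpa, Cebpd and Cebpg after 4 h (44.8%). With IFNg+IL4 it was listed within 20 kb of Cebpa only, at 2 h (20.9%) and at 4 h (22.6%). Cebpe was the member without a MYC peak within 20 kb in any of the 5 lists. With each list limited to the length of the shortest list of its factor, IRF1 and MYC each reached 1 member within 20 kb in any list. By list, MYC then reached 0 members with IL4 at 2 h and 0 at 4 h, and 1 and 0 with IFNg+IL4. IRF1 reached 1 with IFNg and 1 with IFNg+IL4. The differences between treatments given above for these factors were thus not kept at equal list length, 244 peaks for IRF1 and 495 for MYC. Within 100 kb MYC reached 1 member in untreated cells, 5 and 5 with IL4, and 3 and 4 with IFNg+IL4, beside 11.4%, 69.8%, 65.3%, 41.6% and 43.2% of genes. None of the 128 input peaks lay within 100 kb of a member.

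**Figure D1:**
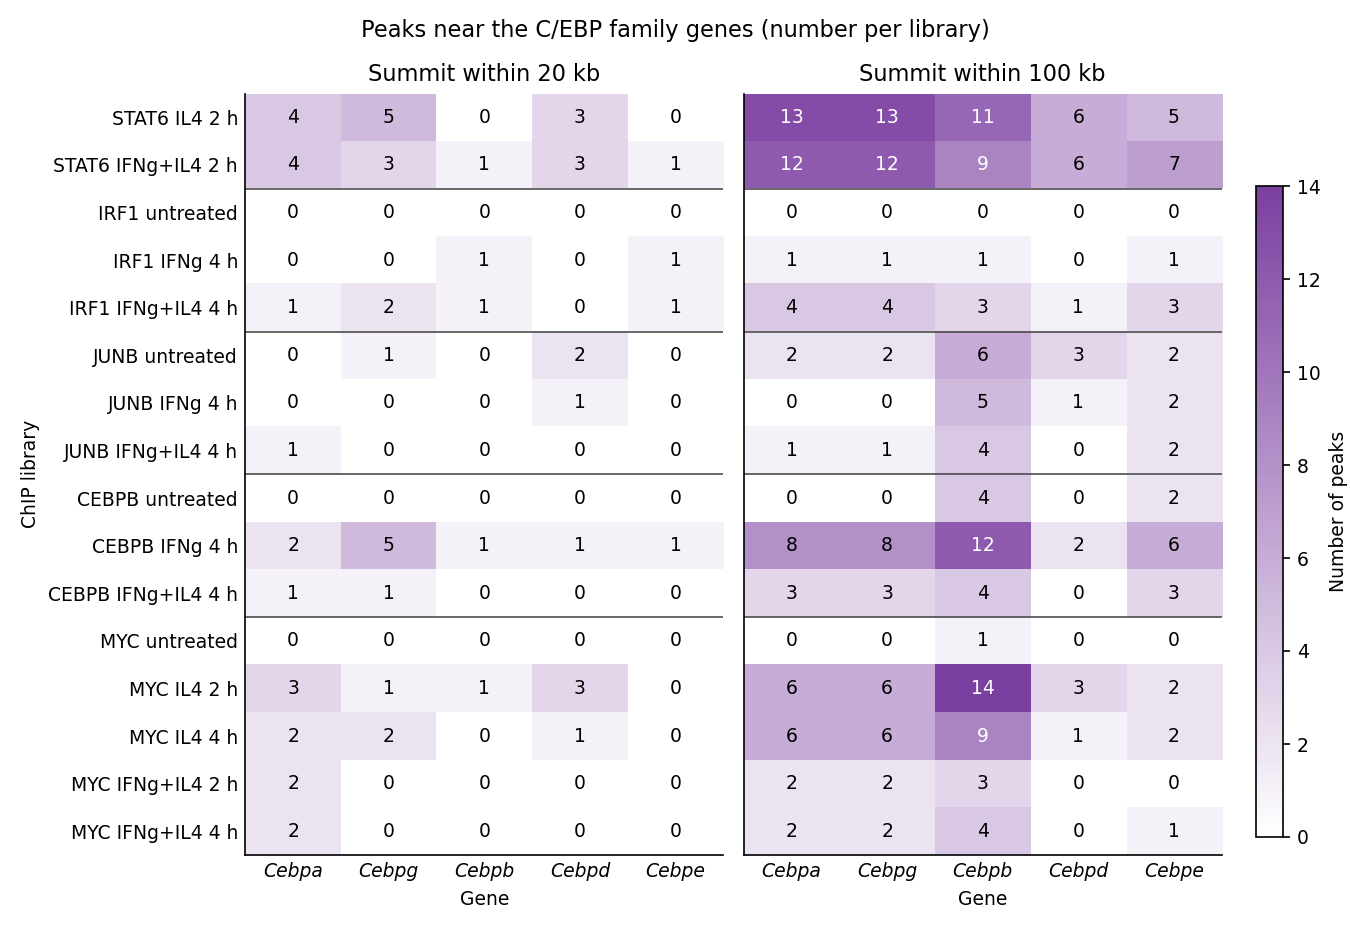
Number of peaks with a summit within 20 kb (left) and within 100 kb (right) of each gene (columns) in each ChIP library (rows); darker cells hold more peaks. Within 20 kb the untreated CEBPB row is 0 for all 5 genes and the IFNg row is 1 to 5, and within 100 kb Cebpb reaches 12 CEBPB peaks with IFNg and 14 MYC peaks after 2 h of IL4.

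Around its own gene CEBPB had most of its peaks outside the near window. Within 20 kb of Cebpb the 3 CEBPB lists held 0, 1 and 0 peaks, and within 100 kb they held 4, 12 and 4 (untreated, IFNg and IFNg+IL4). A wider window holds more peaks by construction. With IFNg the median over all genes was 0 within 20 kb and 2 within 100 kb. Cebpe also had 0, 1 and 0 within 20 kb, and it had 2, 6 and 3 within 100 kb. The 12 peaks with IFNg were reached or exceeded by 2.86% of genes in that list, and the 4 peaks by 4.19% of genes in untreated cells and 5.9% with IFNg+IL4. Limited to its 5540 strongest peaks, the IFNg list held 5 peaks within 100 kb of Cebpb, and the other lists still held 4 each.

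The only CEBPB peak within 20 kb lay inside Cebpb, at chr2:167690030-167690285 as merged with a MYC peak of the IL4 2 h list. It had a fold enrichment of 6.05 and a −log10 p of 18.5, and ranked 11953 of 21499 in the IFNg list. The MYC peak there had a fold of 5.15 and ranked 10856 of 13211. Fold enrichment and −log10 p are the authors' values for each peak and are used to place a peak within its own list. The peak inside Cebpb was thus near the middle of its list for CEBPB and in the weaker part for MYC.

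A site 20.3 kb beyond the gene, just outside the near window, was listed for CEBPB under all 3 conditions. Its folds were 5.75 in untreated cells (rank 4530 of 5540), 20.3 with IFNg (rank 3005 of 21499) and 5.2 with IFNg+IL4 (rank 5273 of 6278). No other factor was listed at it. On the inner side of the limit, the outermost site within 20 kb of any member lay 19.2 kb from Cebpg, in Pepd, and held 1 MYC and 1 STAT6 peak.

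The strongest CEBPB binding around Cebpb lay 63.7 kb and 69.7 kb beyond the gene, on its downstream side, outside any protein-coding gene of the table. The farther site, chr2:167759747-167760470, had CEBPB folds of 38.3, 69.2 and 45.7 in untreated, IFNg and IFNg+IL4 cells. It ranked 9 of 5540, 5 of 21499 and 8 of 6278, so it was among the 10 strongest CEBPB peaks of each list. The same site was listed in 10 of the 16 lists, for 4 factors.

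STAT6 had folds of 14.4 and 10.0 at that site with IL4 and IFNg+IL4. JUNB had folds of 6.38, 8.72 and 12.0 in untreated, IFNg and IFNg+IL4 cells, with ranks of 1901 of 9229, 3349 of 7428 and 912 of 5556. MYC had folds of 12.1 and 9.76 after 2 h and 4 h of IL4, and was not listed there in untreated cells or with IFNg+IL4. IRF1 was not listed at the site. CEBPB thus stood near the top of its lists at this site, and the other factors did not.

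The nearer site, chr2:167753884-167754522, was listed for CEBPB with folds of 18.6, 49.7 and 21.2 and ranks of 281 of 5540, 62 of 21499 and 225 of 6278. STAT6 was listed there with folds of 22.0 and 19.8, JUNB in untreated and IFNg cells, and MYC after 2 h of IL4. On the other side of the gene, 39.5 kb away inside Tmem189, a site was listed in 9 lists: all 3 CEBPB lists (folds of 8.55, 19.2 and 10.1), all 3 JUNB lists, untreated MYC and both MYC lists with IL4 alone. It was the only site within 100 kb of any member that held a peak of the untreated MYC list.

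IRF1 was listed at a site 7.67 kb beyond Cebpb, chr2:167697870-167698391. Its fold was 30.4 with IFNg, rank 55 of 4189, and 38.3 with IFNg+IL4, rank 34 of 8226. STAT6 was listed at it with IFNg+IL4 (fold of 4.65, rank 16086 of 21481) and not with IL4 alone. This was the strongest IRF1 peak near any member in both lists, and CEBPB was not listed at it.

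MYC had 14 peaks within 100 kb of Cebpb after 2 h of IL4, a number reached or exceeded by 2.11% of genes in that list, and 9 after 4 h. With IFNg+IL4 it had 3 and 4. Its highest ranks at the locus with IL4 for 4 h were at sites 85.1 kb and 87.4 kb beyond the gene, near the outer limit of the window. The first of these had MYC folds of 17.5 and 12.8 with IL4 at 2 h and 4 h, and of 6.88 and 6.63 with IFNg+IL4. The second, chr2:167777358-167778065, had folds of 15.0 and, for the stronger of its peaks, 13.9 with IL4 and 8.61 and 7.6 with IFNg+IL4, and was also listed for CEBPB with IFNg, for JUNB and for STAT6. The outermost site, 99.9 kb away, was listed for MYC alone, in 3 lists.

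Cebpg and Cebpa had no CEBPB peak in untreated cells within 100 kb, 8 with IFNg and 3 with IFNg+IL4. Around Cebpg the CEBPB peaks crowded at the start of the gene: 5 of the 8 lay within 20 kb of it, a number reached or exceeded by 5.09% of genes. Of these, 3 were inside the gene, with folds of 14.6, 6.04 and 14.8, and the last of them covered the start site. A peak 0.71 kb before the start had a fold of 7.16 with IFNg (rank 8019 of 21499) and 6.35 with IFNg+IL4 (rank 3876 of 6278), and another 8.46 kb before it had a fold of 12.1 with IFNg. The highest rank among the 5 was 6543 of 21499, so none was near the top of the list.

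The Cebpg start site was shared with 2 other factors. MYC had folds of 8.93 and 6.7 there after 2 h and 4 h of IL4, and IRF1 a fold of 5.92 with IFNg+IL4. Their peaks and that of CEBPB cover the stretch in capitals in the Cebpg sequence above. STAT6 was not listed at the start site itself. With IL4 it had a weak peak 0.71 kb before the start, at the site listed there for CEBPB (fold of 4.44, rank 22701 of 24927). STAT6 was also listed inside the gene, away from the start, with folds of 15.2 with IL4 and 6.3 with IFNg+IL4. Because Gm45095 overlaps the start of Cebpg, peaks there cannot be assigned to one of the genes.

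The Cebpa start was the site of most factors at this locus. The merged site chr7:35118538-35119455 was listed in 8 lists: both STAT6 lists, IRF1 with IFNg+IL4, CEBPB with IFNg and all 4 MYC lists with cytokine. Peaks over the 250 bases shown above had folds of 13.3 and 5.58 for STAT6, 8.37 for IRF1 and 10.3 for CEBPB. For MYC they were 11.7 and 11.6 with IL4 and 10.9 and 9.47 with IFNg+IL4. Their summits lay 37 to 254 bases before the start site. MYC had a second site 1.2 kb before the start in the same 4 lists, with folds of 19.3 (rank 596 of 13211) and 8.82 with IL4. With IFNg+IL4 its folds were 5.53 (rank 2606 of 3034) and 4.75 (rank 3275 of 3402), in the weak part of those lists. Cebpa was the only member with MYC peaks within 20 kb in both IFNg+IL4 lists. As many peaks as its 2, which include this weak one, or more were found at 5.36% and 6.77% of genes.

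CEBPB itself was listed near Cebpa at the start site with IFNg and 5.4 kb beyond the gene with IFNg (fold of 11.3) and IFNg+IL4 (fold of 5.15, rank 5955 of 6278). STAT6 had 4 peaks within 20 kb in each list, which 12.7% of genes with IL4 and 10.0% with IFNg+IL4 had too, or exceeded. Besides the start these lay 3.37 kb before the gene, with folds of 12.5 and 5.21, and 18.2 kb beyond it, with folds of 17.2 and 9.53. JUNB joined STAT6 at the farther of them with IFNg+IL4 (fold of 6.98).

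The strongest peak of the Cebpg and Cebpa region lay between the genes, at chr7:35080875-35081593. STAT6 had folds of 44.5 with IL4 (rank 723 of 24927) and 54.3 with IFNg+IL4 (rank 158 of 21481) there. IRF1 was listed with folds of 16.5 with IFNg (rank 601 of 4189) and 24.6 with IFNg+IL4 (rank 323 of 8226). CEBPB was listed with folds of 6.81 and 6.19 under the same conditions. The site was not listed for any factor in untreated cells, and it was the only IRF1 peak within 100 kb of Cebpa or Cebpg with IFNg alone. STAT6 was not mapped in untreated cells.

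**Figure D2:**
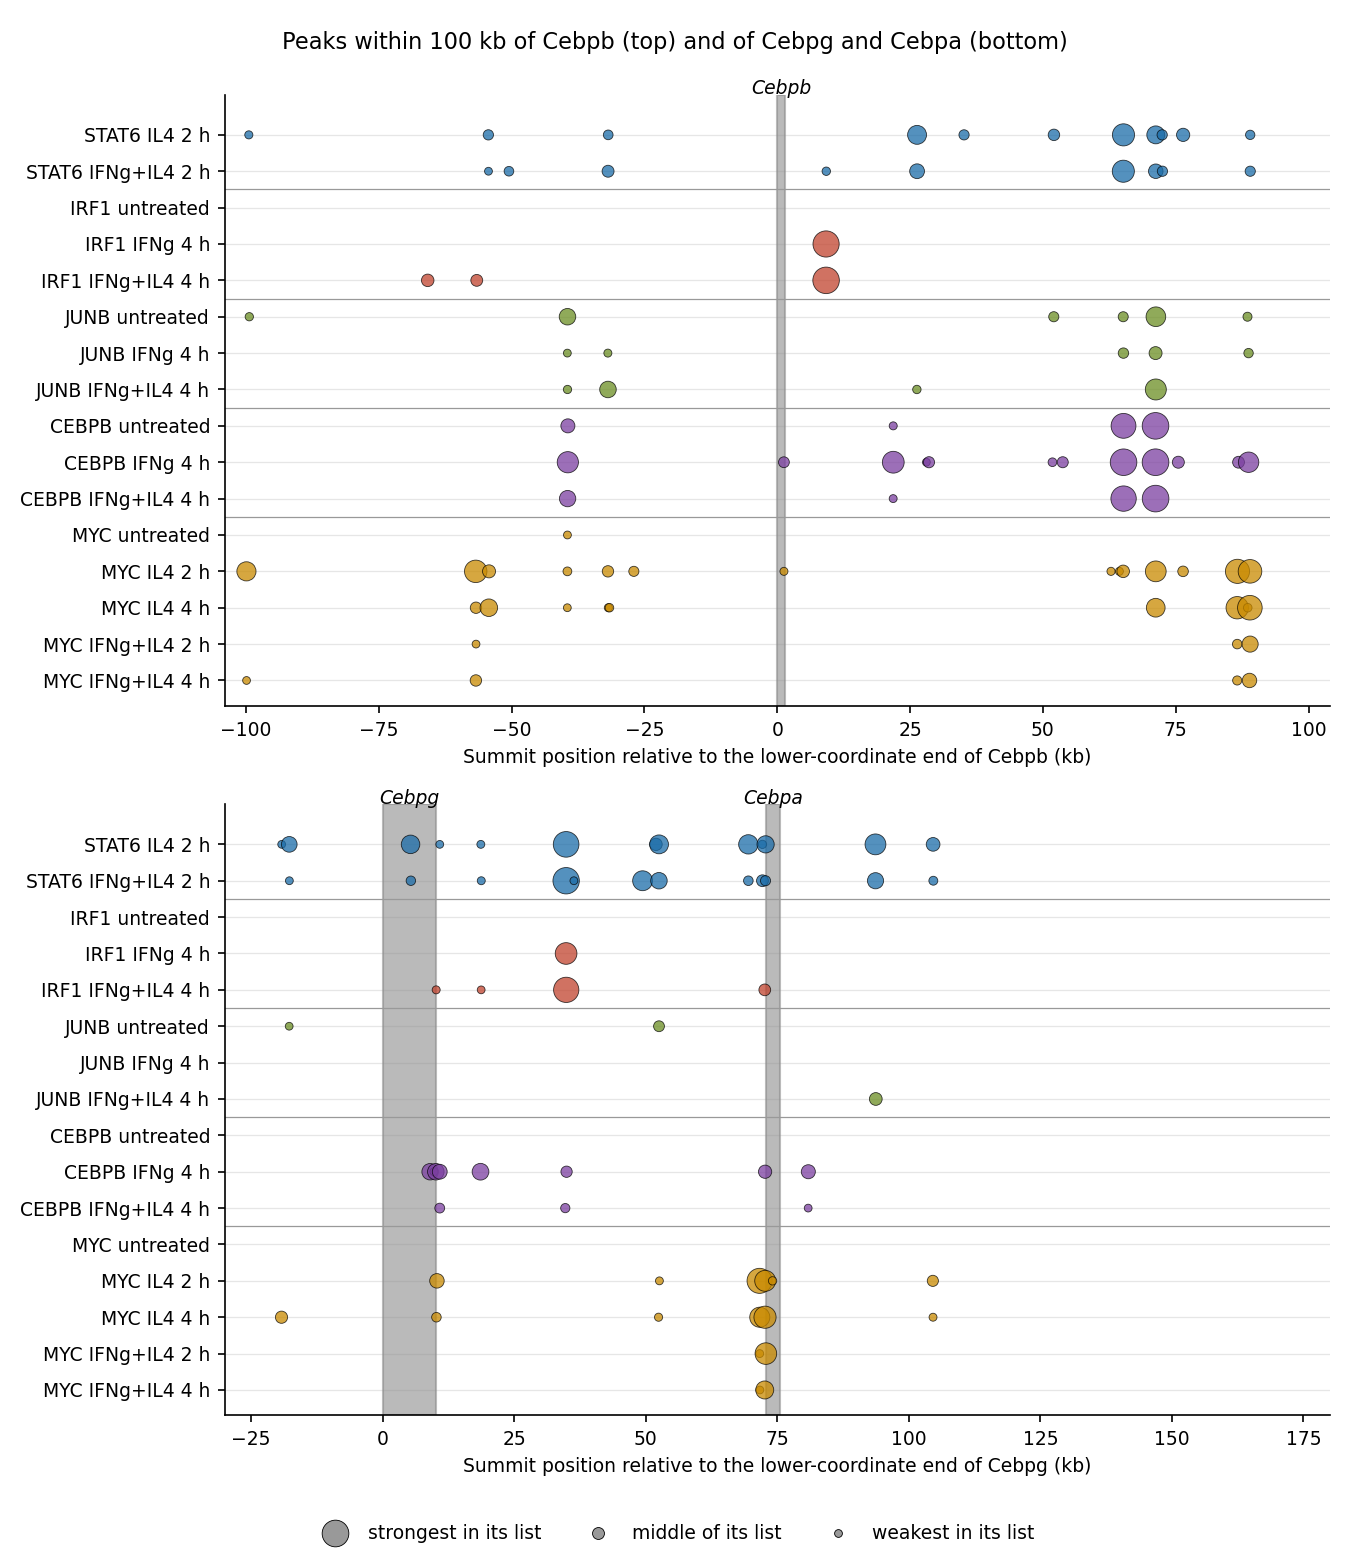
Peak summits around Cebpb (top) and around Cebpg and Cebpa (bottom), by distance in kb from the lower-coordinate end of the first gene and by ChIP library; grey bands are the genes, colours the factors, and larger circles mark peaks with a higher −log10 p rank within their own list. The large CEBPB circles at Cebpb lie 63.7 kb and 69.7 kb beyond the gene in all 3 CEBPB lists, and the large STAT6 and IRF1 circles of the lower panel share the site between Cebpg and Cebpa.

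Cebpd had 6 STAT6 peaks within 100 kb with IL4 and 6 with IFNg+IL4, and each overlapped a peak of the other list. The strongest lay 6.7 kb beyond the higher-coordinate end of the gene, inside Spidr, with folds of 32.4 (rank 2866 of 24927) and 21.9 (rank 3480 of 21481). No other factor was listed at that site. A site 0.6 kb beyond the same end, chr16:15889952-15890356, held STAT6 (folds of 14.8 and 11.4), CEBPB with IFNg (fold of 16.6, rank 4087 of 21499) and JUNB in untreated and IFNg cells (folds of 3.64 and 6.05). This was the only CEBPB peak within 20 kb of Cebpd, and CEBPB was not listed within 100 kb of the gene in untreated cells or with IFNg+IL4.

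At the lower-coordinate end of Cebpd, STAT6 was listed in both lists with folds of 8.69 and 6.71. MYC was listed there with IL4, with folds of 15.1 (rank 1404 of 13211) after 2 h and 9.24 (rank 2858 of 9645) after 4 h. MYC was not listed near Cebpd with IFNg+IL4 or in untreated cells. The site of most factors within 100 kb of Cebpd, chr16:15956480-15956771, lay 67.1 kb away inside Spidr. It held STAT6, IRF1, JUNB and CEBPB peaks with folds between 3.3 and 7.67. By rank these ran from 9504 of 21481 for STAT6 with IFNg+IL4 to 20816 of 21499 for CEBPB with IFNg.

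Cebpe had 4 peaks within 20 kb over all 16 lists, the fewest of the 5 members. IRF1 was listed 4.6 kb from the gene on its lower-coordinate side with folds of 14.8 with IFNg (rank 813 of 4189) and 11.5 with IFNg+IL4 (rank 2398 of 8226). STAT6 had 1 peak 9.64 kb away with IFNg+IL4 (fold of 7.87). The only CEBPB peak within 20 kb, 15.1 kb away with IFNg, had a fold of 3.84 and ranked 21446 of 21499, near the end of its list.

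The CEBPB peaks of high rank near Cebpe were inside the neighbouring gene Slc7a8, which encodes an amino acid transporter. A site 42.5 kb from Cebpe, chr14:54754520-54755029, had CEBPB folds of 22.5, 53.7 and 25.2 in untreated, IFNg and IFNg+IL4 cells, with ranks of 253 of 5540, 188 of 21499 and 231 of 6278. STAT6 was listed there with folds of 12.7 and 8.07, and JUNB in untreated cells. The site of most lists, chr14:54768211-54768789, lay 56.4 kb away and was listed in 10 lists. It had STAT6 folds of 32.8 and 32.2, CEBPB folds of 5.96, 20.3 and 10.5, JUNB folds of 8.09, 4.68 and 4.1, and MYC peaks with IL4 and IFNg+IL4 at 4 h. Lists of positions do not tell which gene such a site acts on.

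**Figure D3:**
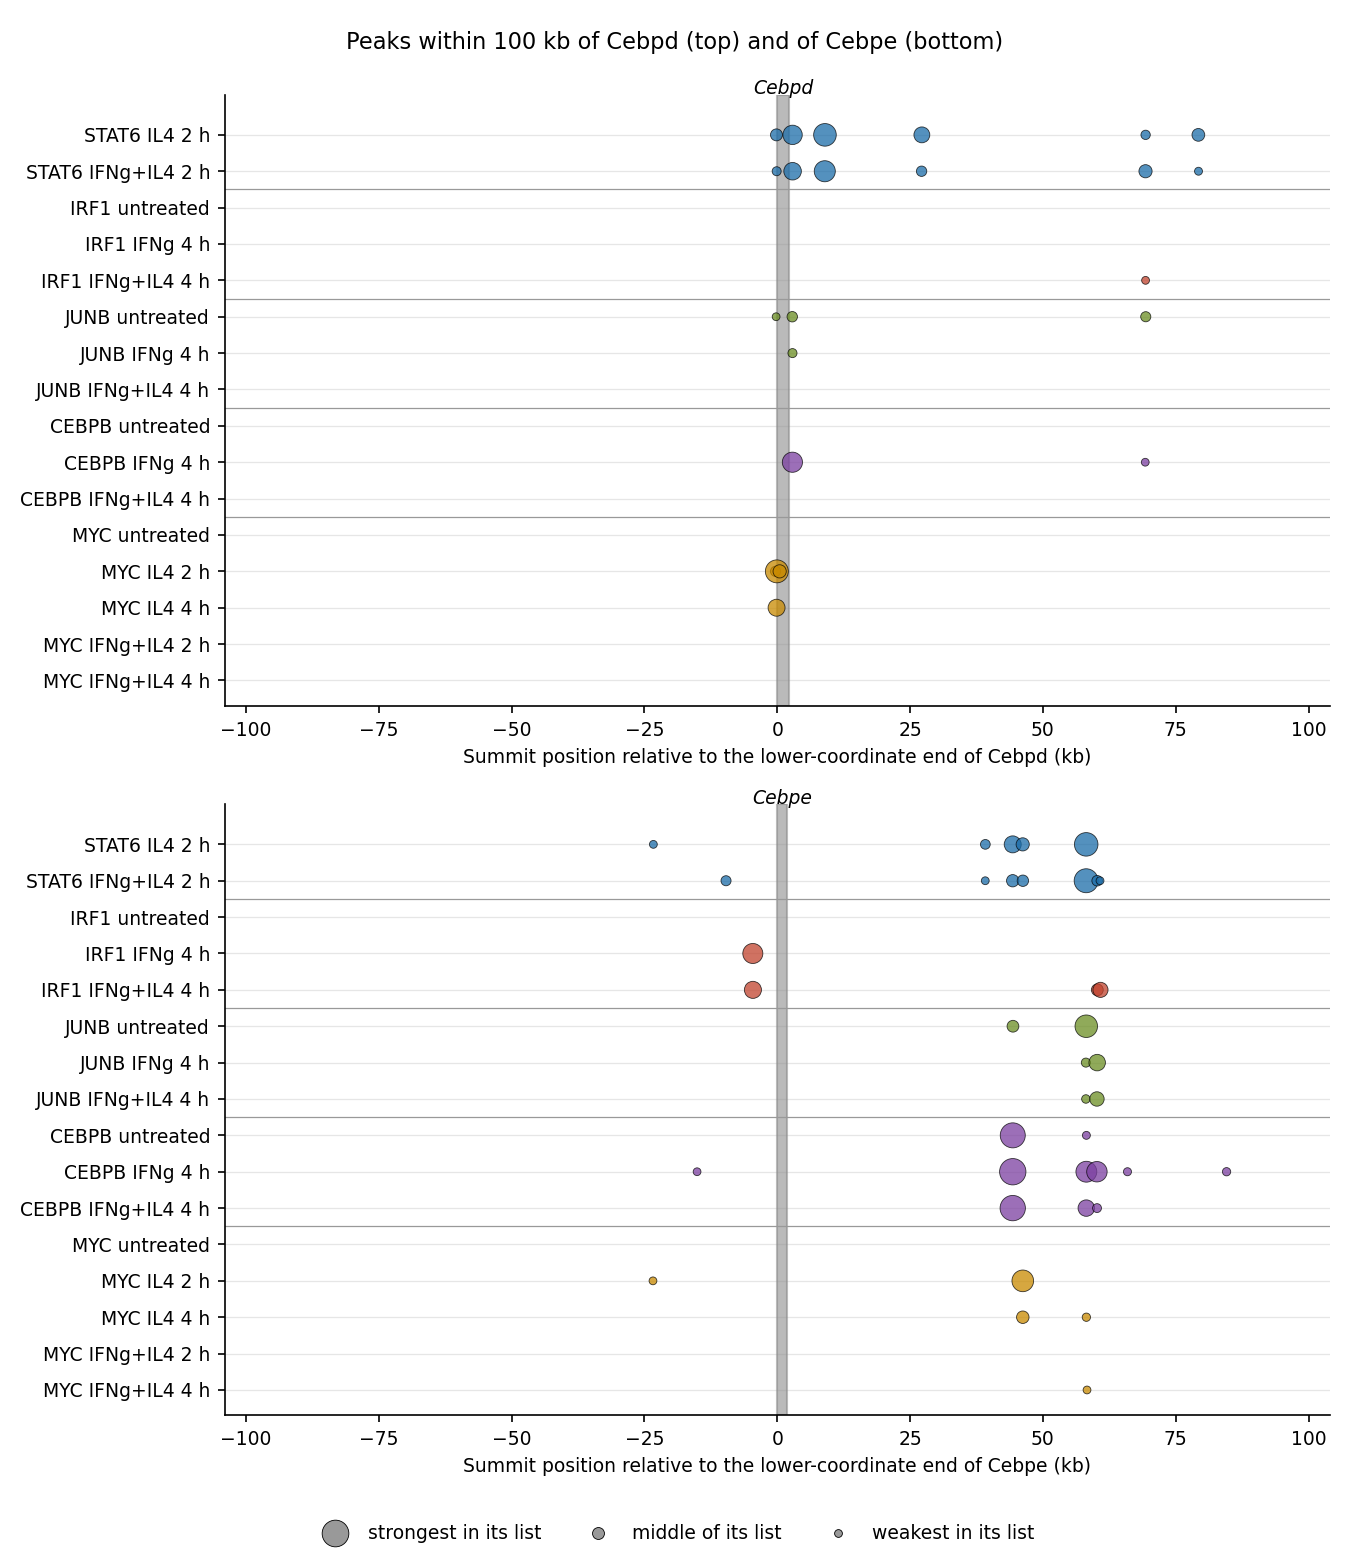
Peak summits around Cebpd (top) and Cebpe (bottom), by distance in kb from the lower-coordinate end of the gene and by ChIP library, with colours and circle sizes for factor and rank within the list. STAT6 has the same 6 sites at Cebpd in both rows, and the large CEBPB circles at Cebpe lie 42.5 kb beyond the gene in all 3 rows.

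Merging overlapping peaks of the 16 lists gave 66 sites within 100 kb of the members: 27 near Cebpb, 20 near Cebpg and Cebpa, 12 near Cebpe and 7 near Cebpd. STAT6 was listed at 41 of them, CEBPB at 28, MYC at 26, JUNB at 17 and IRF1 at 11. The share of all sites listed for each factor was not computed, and the factors differ in the number and length of their lists. At least 3 factors were listed at 17 sites (25.8%), beside 14.1% of 55577 sites in all, and at least 4 factors at 7 sites (10.6%), beside 4.38%. All 7 held both STAT6 and CEBPB, but a site of at least 4 of the 5 factors lacks at most 1. The share of all such sites that hold both was not computed. Of these 7, 3 lay near Cebpb, 2 near Cebpe, 1 at the Cebpa start and 1 near Cebpd. No site near a member held all 5 factors, beside 0.65% of sites overall. Within 20 kb, 5 of 23 sites (21.7%) held at least 3 factors, and 1 of 23 (4.35%) held at least 4, near the share of all sites.

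Peaks kept between treatments were counted next. For each of 13 comparisons between lists of 1 factor, the share of peaks within 100 kb that overlapped a peak of the other list was set beside the share over all peaks. The share over all peaks lay inside the exact 95% Clopper-Pearson interval of the members' share in 13 of 13 comparisons. The intervals cover counting error only, and peaks of a locus share their neighbourhood. Some are very wide, such as 29.2 to 100.0% for 3 IRF1 peaks with IFNg and 54.1 to 100.0% for 6 untreated CEBPB peaks. Some pairs of STAT6, IRF1 and CEBPB lists enter in both directions. The count of 13 of 13 therefore does not show that the members are like all peaks.

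All 6 untreated CEBPB peaks near the members overlapped a peak with IFNg (all peaks, 99.9%) and a peak with IFNg+IL4 (76.3%). In the other direction 6 of 28 IFNg peaks, 21.4%, overlapped an untreated peak (interval 8.3 to 41.0%, all peaks 25.6%), and 10 of 28, 35.7%, overlapped an IFNg+IL4 peak (18.6 to 55.9%, all peaks 28.2%). The 6 sites in all 3 CEBPB lists were the 4 named at Cebpb and 2 in Slc7a8 near Cebpe. At Cebpa and Cebpg 0 of 8 IFNg peaks overlapped an untreated peak and 3 of 8 overlapped an IFNg+IL4 peak. With lists of equal length the shares of IFNg peaks kept were higher, 6 of 9 in untreated cells and 7 of 9 with IFNg+IL4. Within 20 kb they were lower, 0 of 10 and 2 of 10. The shares over all peaks were not computed for lists of equal length.

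For MYC, 5 of 25 peaks after 2 h of IL4 overlapped a peak with IFNg+IL4 at the same time (20.0%, interval 6.83 to 40.7%, all peaks 20.8%). At 4 h the count was 6 of 18 (33.3%, interval 13.3 to 59.0%, all peaks 30.8%). With lists of equal length these shares were 55.6% (5 of 9) and 57.1% (4 of 7), and with a reciprocal overlap of 50% they were 8% and 11.1%. The shares over all peaks were not computed at either setting. Between 2 h and 4 h of IL4, 15 of 25 were shared (60.0%, all peaks 63.1%). The members' MYC peaks listed with IFNg+IL4 at both times were those at the Cebpa start and 1.2 kb before it, and at the 3 sites 56.7 kb before and 85.1 kb and 87.4 kb beyond Cebpb.

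For STAT6, 27 of 35 peaks with IL4 overlapped a peak with IFNg+IL4 (77.1%, interval 59.9 to 89.6%, all peaks 68.7%), and 27 of 34 in the other direction (79.4%, all peaks 80.3%). By gene, the IL4 peaks kept were 7 of 11 at Cebpb, 10 of 13 at Cebpa and Cebpg, 4 of 5 at Cebpe and 6 of 6 at Cebpd. The 3 IRF1 peaks with IFNg were all listed with IFNg+IL4 (all peaks, 95.2%), and 3 of 11 IFNg+IL4 peaks, 27.3%, were listed with IFNg (interval 6.02 to 61.0%, all peaks 47.6%). For JUNB, 6 of 13 untreated peaks were listed with IFNg (46.2%, all peaks 46.9%), and 5 of 8 IFNg peaks with IFNg+IL4 (62.5%, all peaks 62.0%). At a −log10 q from 5 upward, 3 of 3 untreated JUNB peaks were listed with IFNg, a setting at which the share over all peaks was not computed.

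**Figure D4:**
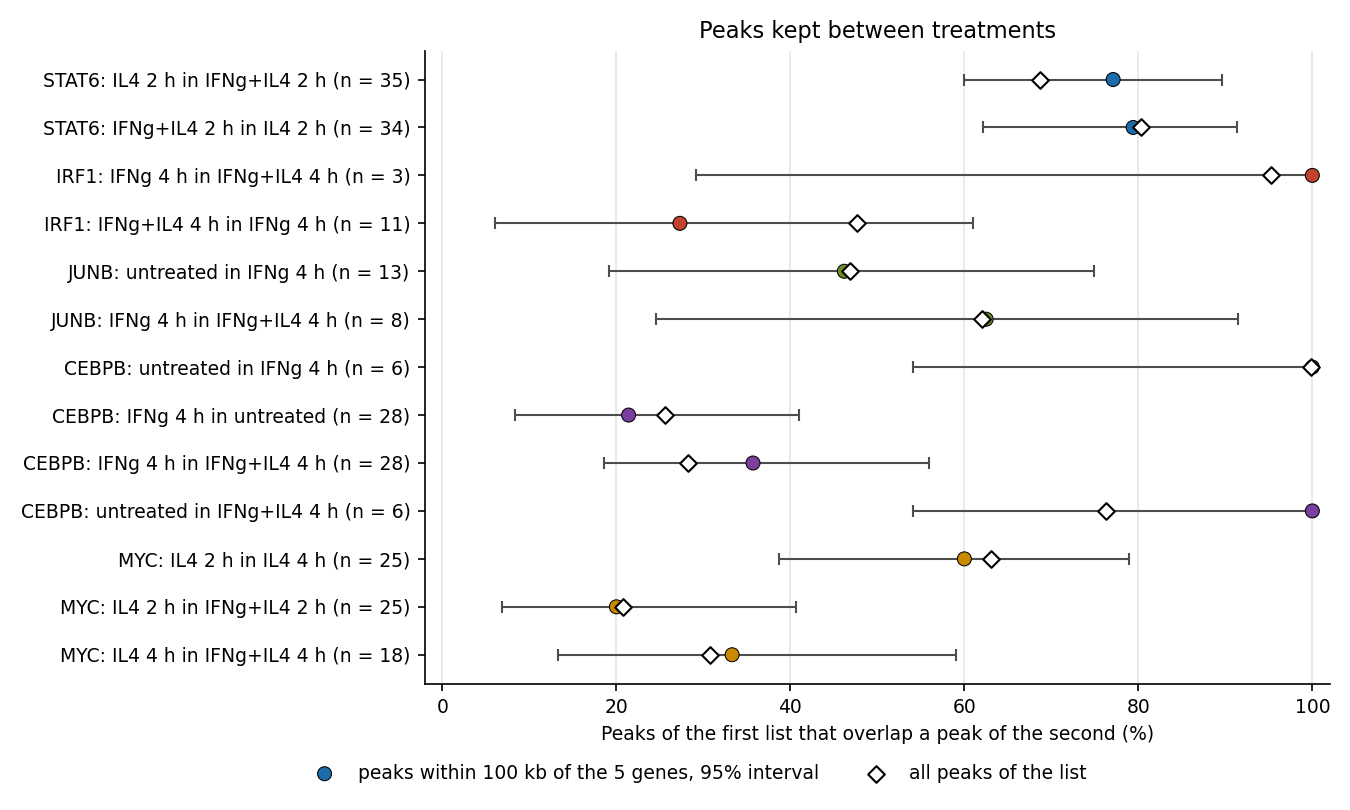
Share of the peaks of one list that overlap a peak of a second list of the same factor (horizontal axis, %), for peaks within 100 kb of the 5 genes (filled circles, with 95% Clopper-Pearson intervals) and for all peaks of the list (open diamonds). Every diamond lies within the interval of its row, but intervals from few peaks are wide. The shares run from 20.0% for MYC to 100.0% for untreated CEBPB.

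Other genes of the C/EBP network gave a context for the members. Among 9 genes listed as partners or regulators of C/EBP proteins, 6, 7 and 6 had a CEBPB peak within 20 kb in untreated, IFNg and IFNg+IL4 cells. The shares of all protein-coding genes were 20.7%, 48.2% and 22.4%. The 9 include Cebpz, which had 1 peak in each list and whose place among partners or regulators was not checked. Nfil3, a zipper repressor, had 4, 5 and 4 peaks and Ddit3, the stress-induced C/EBP partner CHOP, had 3, 5 and 3. Trib1, whose protein promotes breakdown of C/EBPα, had 2, 3 and 2, and Batf2, an interferon-induced zipper factor, had 0, 3 and 1. Batf and Trib2 had no peak in any of these lists. Among 18 genes known to be controlled by C/EBP factors in myeloid cells, 11, 16 and 13 had a peak, beside the same shares of all genes. The cytokine gene Il1b had 3 peaks in each list, Il6 and the arginase gene Arg1 had 2 in each, and Tnf had 1, 7 and 1. Csf1r had 0, 3 and 0, and Mpo and Lcn2 had no peak in any of them. The lists of genes were compiled from general knowledge, are small, and carry no test, and were not compared with the members.

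Genes with a pattern of counts like a member's were found by Pearson's r of log2(1 + number of peaks within 20 kb) over the 16 lists, among genes over 100 kb from every member. Nearest to Cebpb were Mastl and Yme1l1, with the same counts in every list (r = 1.0), and Cdc14a (0.97). Nearest to Cebpa were Ube2q2 (0.93), Pim3 and Gm33049 (0.92 each), and to Cebpg Smarcc2 (0.97), Tnfrsf22 (0.96) and Vasp (0.95). Nearest to Cebpd were Nkiras2, Slc30a9 and Agps (0.95 each), and to Cebpe 4930519G04Rik, Cdc42bpa and Fndc11 (1.0 each). Ties were broken by the smaller sum of absolute differences and then by symbol. Genes with r above 0.9 numbered 10 for Cebpb, 23 for Cebpa, 40 for Cebpg, 50 for Cebpd and 22 for Cebpe, so the named genes are examples. The 16 points share libraries and list lengths, and the patterns of Cebpb and Cebpe rest on 5 and 4 peaks, so these values are a description only.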

How the data were processed

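The data were 17 ChIP-seq peak lists, 16 of ChIP and 1 of input, each from 1 library. Per the submitters' processing notes, Bowtie2 2.2.6 and MACS2 2.1.0.20150731 were used with mm10 (GRCm38), with settings not given in the sources used here. Each list, as deposited, has the 10 columns of the narrowPeak layout. The authors' fold enrichment is the value deposited for each peak. The background it was computed against was not checked. The deposited −log10 p and −log10 q are per peak, and the deposited score is 10 times the −log10 q, or the −log10 p in untreated JUNB, whose list reaches below the −log10 q of 2 that bounds the others. Read counts were not used here. List length, −log10 p and −log10 q all depend on sequencing depth, which was not tested.

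Peaks on chromosomes 1 to 19, X and Y that did not overlap an input peak were used. Summits were measured to gene spans of a RefSeq table (GRCm38.p6), which gives no exons or strands. Overlap of at least 1 bp merged peaks into sites and defined a kept peak. Ranks are by −log10 p within a list. Shares have exact Clopper-Pearson intervals (scipy 1.17.1). Interval code was checked on simulated peaks. The members and gene lists were chosen with earlier results of these data known. Named by rule were the 5 members, the site of most factors per member, CEBPB sites within 20 kb of Cebpb and the 3 genes most alike per member. The other sites, and the examples among C/EBP network genes, were chosen after their values were seen. Motifs were searched in promoters and not at summits, for which no genome was used. Alternatives were other windows, −log10 q of at least 5, equal list lengths, input peaks kept, 50% reciprocal overlap and joined summits.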

Additional observations from a re-analysis of the deposited data

How the results depend on the processing

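No paired analysis was possible because each group is 1 library. Of 179 recomputed values for 41 results, 137 stayed within 1.5 times the count or inside the interval of the share. The 137 include 13 and 11 values with input peaks kept, a setting that could not change them. With a window of 5 kb the members reached in any list were 3 for STAT6 (5 at 20 kb) and 1 for JUNB (3 at 20 kb), and CEBPB with IFNg+IL4 reached 1. With 50 kb JUNB reached 5, CEBPB reached 2 in untreated cells and 4 with IFNg+IL4, and the CEBPB peaks of Cebpb were 2, 5 and 2. With equal list lengths the members reached in any list were 1 for IRF1, 2 for CEBPB and 1 for MYC; CEBPB reached 1 member with IFNg and 1 with IFNg+IL4, and had 0 peaks within 20 kb and 5 within 100 kb of Cebpb with IFNg, the last an alternative chosen after seeing the data. The lengths were 244 peaks for IRF1 and 495 for MYC, so these lists are very short. At a −log10 q of at least 5, CEBPB with IFNg+IL4 reached 1 member and 3 of 3 untreated JUNB peaks were kept with IFNg (100%).

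Equal lengths within a pair raised the share of IFNg CEBPB peaks kept to 66.7% in untreated and 77.8% in IFNg+IL4 cells, and of MYC IL4 2 h peaks kept with IFNg+IL4 to 55.6%. Within 20 kb, 0 of 10 IFNg CEBPB peaks were kept in untreated cells and 0 of 1 IFNg JUNB peaks with IFNg+IL4. A reciprocal overlap of 50% lowered the share of MYC IL4 4 h peaks kept with IFNg+IL4 to 11.1%. The kept shares over all peaks were not recomputed at equal lengths, the stricter −log10 q or 50% reciprocal overlap. Keeping input peaks could not change the counts of members, because none of the 128 input peaks lay within 100 kb of a member. The share of sites with at least 3 factors was 23.2% with joined summits (all sites, 12.9%) and 17.2% at the stricter −log10 q (11.6%). Shorter lists and smaller windows hold fewer peaks by construction; otherwise the cause was not tested.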
